A study of Mus musculus with 40 samples.

Results

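The apolipoproteins and the proteins that assemble very-low-density lipoprotein (VLDL) were followed across a dose response of mouse liver to TCDD, a chlorinated dioxin and a persistent ligand of the aryl hydrocarbon receptor (AhR). Hepatic RNA was sequenced from 40 male C57BL/6 mice, 5 per group, each library being 1 mouse. The groups received sesame oil vehicle, a low dose of TCDD (0.03, 0.1 or 0.3 μg/kg), a middle dose (1 or 3 μg/kg) or a high dose (10 or 30 μg/kg) by oral gavage every 4 days for 28 days, which was 7 gavages between postnatal days 30 and 58. All groups, vehicle included, shared the strain, the sex, the sesame oil and a tissue collection in the first hours after lights on. The 10 genes were chosen by symbol as Apoa1, Apoa2, Apoa4, Apoa5, Apob, Apoc1, Apoc3, Apoe, Mttp and Lcat, of 55359 gene identifiers in the count files. Each of the 10 symbols matched 1 identifier, and all 10 passed the filter on low counts, which 15373 genes passed in all. Levels are in CPM, unstranded counts scaled to the library total after TMM normalisation.

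Hepatocytes package triglyceride and cholesteryl ester onto apolipoprotein B while it is being translated, a step that needs the lipid transfer activity of microsomal triglyceride transfer protein, and secrete the particle as VLDL. In plasma the smaller exchangeable apolipoproteins regulate lipolysis and uptake: apolipoprotein E is a ligand of hepatic receptors, whereas apolipoproteins C1 and C3 restrain clearance. Apolipoproteins A1 and A2 make up most of the protein of high-density lipoprotein (HDL), on which lecithin-cholesterol acyltransferase esterifies cholesterol. The liver is the main source of most of these proteins, and it is also the organ in which TCDD causes fat to accumulate.

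The promoters are shown because the AhR binds dioxin response elements, whose core is GCGTG, and because most of these genes moved together. Of the 10 genes, 8 had a promoter in RefSeq's table (build GRCm38.p6), with 12 start sites in all; Apoc1 and Apoc3 had no entry. The 250 bases before each start were searched for GCGTG on both strands, which reads CACGC in the printed strand when it lies on the other. The core was in 28.2% of 32851 promoters, and 11 of the 12 member starts lacked it. The exception was Mttp, the microsomal triglyceride transfer protein gene, with 2 copies that began 245 and 111 bases before the start. The sequences below are those of Mttp, of Apoa1 as the most repressed gene and of Apoa4 as the induced gene, 5′ to 3′ in the direction of the gene, with the core in capitals.
Mttp, chr3:138143419-138143668, minus strand: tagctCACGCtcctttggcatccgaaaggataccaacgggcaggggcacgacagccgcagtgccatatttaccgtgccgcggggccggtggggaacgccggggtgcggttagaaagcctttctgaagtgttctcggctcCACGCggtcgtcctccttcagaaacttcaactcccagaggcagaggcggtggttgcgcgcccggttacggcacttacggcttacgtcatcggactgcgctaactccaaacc
Apoa1, chr9:46228380-46228629, plus strand: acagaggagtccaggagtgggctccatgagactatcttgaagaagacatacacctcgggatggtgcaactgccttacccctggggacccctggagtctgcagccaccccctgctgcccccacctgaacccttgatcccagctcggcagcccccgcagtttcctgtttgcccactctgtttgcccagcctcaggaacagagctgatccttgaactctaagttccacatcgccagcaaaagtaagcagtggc
Apoa4, chr9:46240594-46240843, plus strand: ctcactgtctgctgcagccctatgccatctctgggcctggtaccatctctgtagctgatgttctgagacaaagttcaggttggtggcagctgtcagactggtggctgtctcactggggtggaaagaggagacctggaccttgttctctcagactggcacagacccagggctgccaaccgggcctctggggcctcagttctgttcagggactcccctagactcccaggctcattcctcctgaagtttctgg
A match is a string of letters and was not tested as a binding site, and the absence of the core in 250 bases says nothing of elements farther away.

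The 40 libraries held 15.5 to 21.0 M counts in genes (median 17.5), which were 71.3% to 80.8% of all their counts. All 6 known AhR target genes examined were induced at 3, 10 and 30 μg/kg. On the first principal component, which held 47.6% of the variance, 30 μg/kg replicate 1 stood apart from its group at 81.7, between the other 4 mice of that group (129 to 147) and the 10 μg/kg mice (39.1 to 67.8). The log2 fold changes of the 10 genes at 30 μg/kg against vehicle are therefore also given without it. Those of other genes are not.

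TCDD repressed most of the 10 genes, and the repression grew with dose. A gene was called when its adjusted p in edgeR's quasi-likelihood test, adjusted over all genes at that dose, was under 0.05 and its fold change was at least 1.5. No member was called at 0.03, 0.1 or 0.3 μg/kg, where 0.0195%, 0.0976% and 0.468% of all genes were. No member had an unadjusted p under 0.05 at these doses either, and DESeq2 called 0 members at each. At 1 μg/kg 1 member was called (2.78% of all genes) and at 3 μg/kg 2 were (6.75%). At 10 μg/kg 6 members were called, all lower, against 21.8% of all genes in either direction and 8.13% lower. On the adjusted p alone it was 7, against 31.8%. At 30 μg/kg 7 members were called, against 42.1% of all genes, and on the adjusted p alone 9 were, against 55.4%. Of these, 6 were lower and 1 was higher, against 18.9% and 23.2% of all genes. The median log2 fold change of the members was -0.32 at 3 μg/kg, -0.65 at 10 μg/kg and -1.35 at 30 μg/kg, whereas that of all genes tested lay between 0.00 and 0.03.

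**Figure D1:**
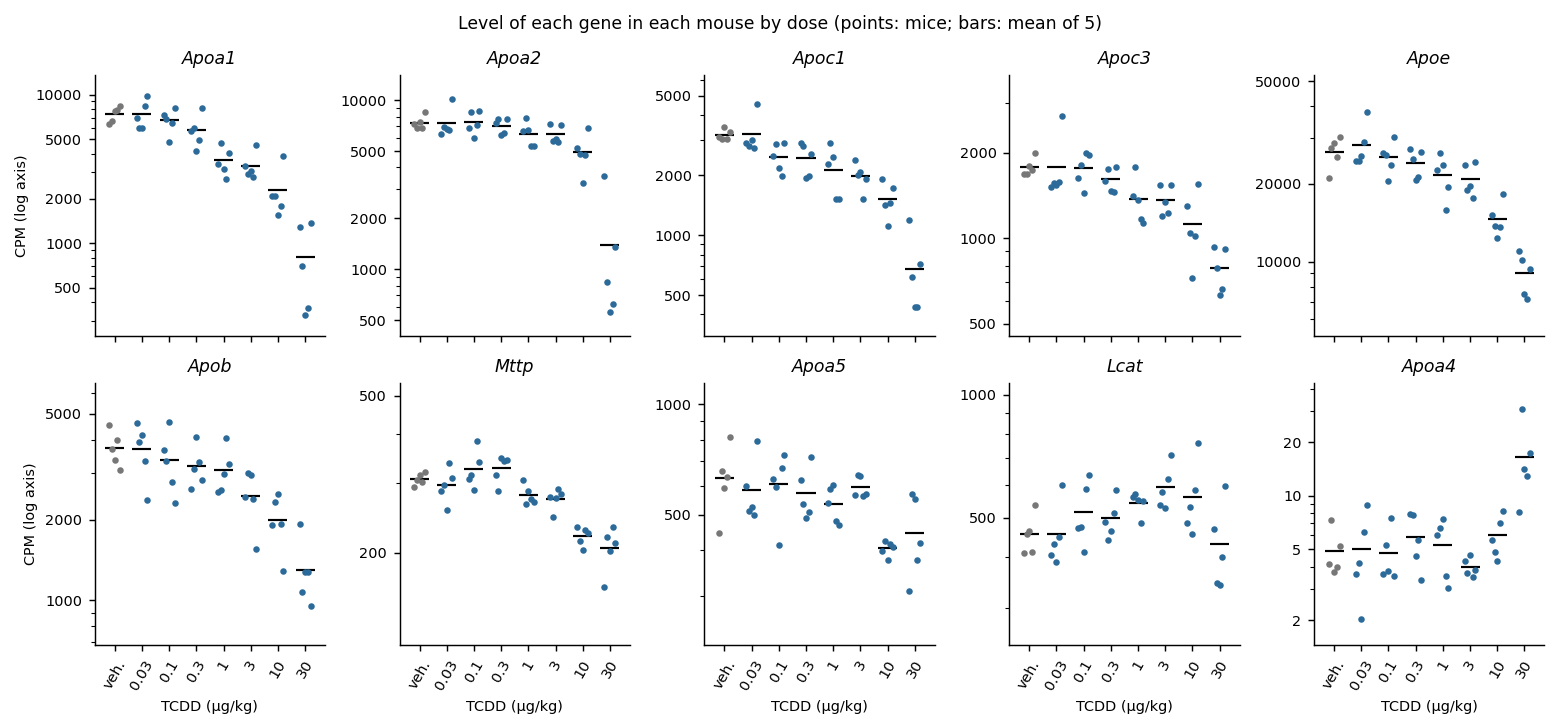
CPM of each of the 10 genes on a log axis against TCDD dose, with 1 point per mouse and a bar at the mean of the 5 mice; vehicle mice are grey. The 5 mice at 30 μg/kg lie below all vehicle mice in 7 of the 10 panels and above them in the Apoa4 panel, where the mean rose from 4.88 to 16.6 CPM. At that dose 37.6% of all genes did not overlap vehicle, in either direction.

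Apoa1, which encodes the major structural protein of HDL, was repressed at the lowest dose of any member and fell the farthest. The vehicle mice had 6317, 6667, 7779, 7908 and 8388 CPM. At 30 μg/kg the mice had 1280, 703, 331, 367 and 1366 CPM. The highest treated mouse was far under the lowest vehicle mouse (37.6% of all genes did not overlap at that dose), and among the treated mice replicates 1 and 5 were above the other 3. Apoa1 was repressed 9.16-fold at 30 μg/kg (log2 fold change -3.20, SE 0.30, adjusted p = 1.31e-11) and by a log2 of -3.42 without replicate 1. Its repression at 10 μg/kg was 3.25-fold (-1.70, SE 0.28, adjusted p = 9.22e-06), with 4 mice between 1549 and 2088 CPM and replicate 5 at 3871 CPM. At 3 μg/kg it was 2.23-fold (adjusted p = 0.00439) and at 1 μg/kg 2.05-fold (adjusted p = 0.023). The 5 mice at 1 μg/kg, at 2726 to 4716 CPM, did not overlap vehicle, a separation that 7.45% of all genes showed at that dose. The call at 1 μg/kg was lost in 6 of the 10 fits that left out 1 mouse of either group, with log2 fold changes of -1.15 to -0.95.

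Apoa2, the second protein of HDL, followed a different course, with little movement until the highest dose. Vehicle mice had 7255, 6803, 7464, 6810 and 8489 CPM, and the mean was still 6322 ± 790 CPM (SD, n = 5) at 3 μg/kg. At 10 μg/kg the mice had 5223, 4829, 3230, 4733 and 6814 CPM, which overlapped vehicle (log2 fold change -0.57, SE 0.28, adjusted p = 0.123). At 30 μg/kg they had 3572, 835, 562, 619 and 1355 CPM, so that replicate 1 was far above every other mouse of its group and still below all vehicle mice. The repression at 30 μg/kg was 5.30-fold (-2.41, SE 0.30, adjusted p = 7.72e-09), and the log2 fold change was -3.13 without replicate 1. From 10 to 30 μg/kg Apoa2 fell by 1.84 on the log2 scale, more than any other member over that step. The log2 ratio of Apoa1 to Apoa2 was 0.01 ± 0.15 (SD, n = 5) in vehicle, -1.16 ± 0.23 at 10 μg/kg and -0.65 ± 0.57 at 30 μg/kg, a description of CPM with no test.

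Lcat, whose enzyme acts on HDL, was not called at any dose. The 5 vehicle mice had 411, 457, 465, 412 and 538 CPM and the 30 μg/kg mice 468, 346, 342, 401 and 598 CPM. The groups overlapped at both ends (log2 fold change -0.08, SE 0.15, adjusted p = 0.655, and -0.12 without 30 μg/kg replicate 1). Its group mean was highest at 3 μg/kg, 595 ± 75.7 CPM against 456 ± 51.9 in vehicle, a log2 difference of 0.38 with an SE of 0.15 that was not called. The step down from 10 to 30 μg/kg was -0.39 (SE 0.15, adjusted p = 0.0387), under the 1.5-fold threshold. When total counts alone set the library size, the difference of 30 μg/kg from vehicle was 0.40 (adjusted p = 0.00139), so the direction of Lcat at 30 μg/kg depended on the scaling.

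Apob, the obligate structural protein of VLDL, was repressed 1.87-fold at 10 μg/kg and 2.85-fold at 30 μg/kg. Vehicle mice had 4522, 3678, 3357, 3970 and 3069 CPM. After 30 μg/kg the mice had 1933, 1075, 1281, 1277 and 952 CPM. The groups did not overlap, and the mouse nearest to vehicle was again replicate 1. The log2 fold change was -0.90 (SE 0.20, adjusted p = 0.000683) at 10 μg/kg, -1.51 (SE 0.21, adjusted p = 8.36e-08) at 30 μg/kg and -1.70 there without replicate 1. At 3 μg/kg the 5 mice lay at 1555 to 2994 CPM, below all vehicle mice (9.72% of all genes did not overlap at that dose), but the test was not passed (-0.59, SE 0.20, adjusted p = 0.0557). That result lay near the threshold: Apob at 3 μg/kg was called by DESeq2 (-0.60, adjusted p = 0.0268), by edgeR with TMM factors made without the members and hepatocyte markers (-0.64, adjusted p = 0.0344), and without 3 μg/kg replicate 2 (-0.67) or 3 (-0.67). The call at 10 μg/kg was lost when only libraries with the second of the 2 series of title numbers were fitted (-0.89, adjusted p = 0.0509).

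Mttp, the microsomal triglyceride transfer protein gene, moved less than its partner Apob but with little spread. Vehicle mice had 294, 306, 314, 302 and 321 CPM and the 30 μg/kg mice 163, 219, 202, 232 and 212 CPM, without overlap. The log2 fold change was -0.58 (SE 0.09, adjusted p = 5.96e-07), a difference just under the 1.5-fold threshold, so that Mttp was not called although its p was small. It was called in 7 of the 10 fits that left out 1 mouse, and the value was -0.51 without 30 μg/kg replicate 1. Scaled by total counts only, it was -0.084 (adjusted p = 0.391), so the decrease of Mttp at 30 μg/kg was lost under that scaling. The same scaling put the median of all genes at 0.52. With TMM factors made without the members and hepatocyte markers, edgeR's test called Mttp lower (-0.70, adjusted p = 2.04e-08). Mice given 10 μg/kg had 204 to 233 CPM (-0.48, SE 0.09, adjusted p = 4.94e-05), and the step from there to 30 μg/kg was -0.10 (SE 0.09, adjusted p = 0.404). The log2 ratio of Apob to Mttp went from 3.58 ± 0.27 (SD, n = 5) in vehicle to 2.63 ± 0.55 at 30 μg/kg.

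**Figure D2:**
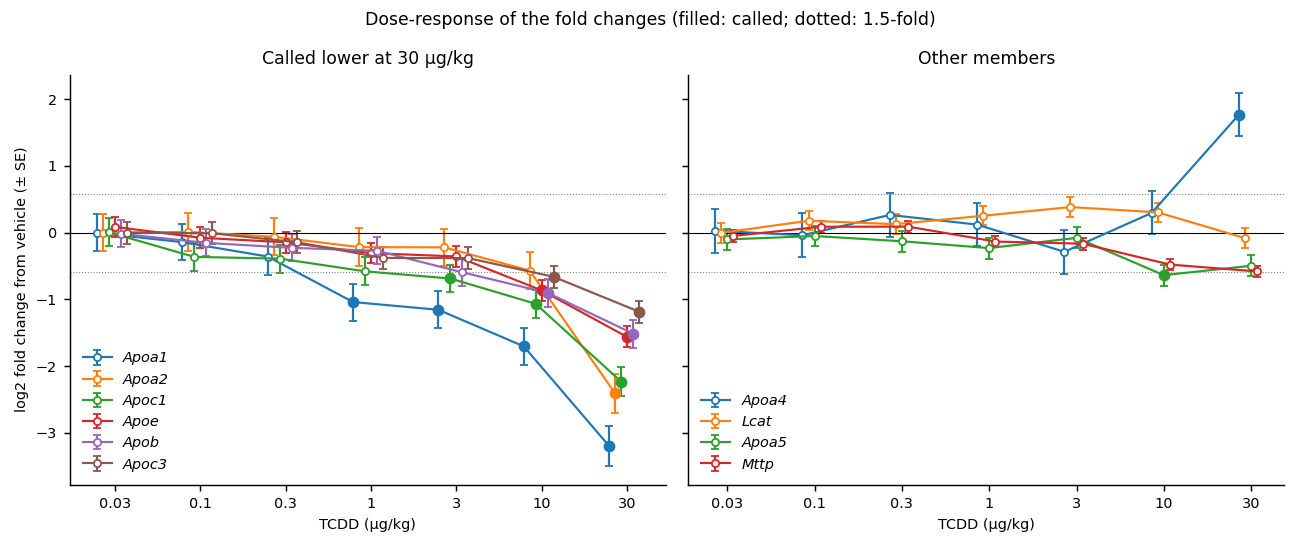
Log2 fold change from vehicle with its standard error against TCDD dose, for the 6 genes called lower at 30 μg/kg (left) and the other 4 (right); filled points were called and dotted lines mark 1.5-fold. Apoa1 leaves the others from 1 μg/kg on, Apoa2 drops between 10 and 30 μg/kg, and Apoa4 is the only curve that ends above 0.

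Apoe, the receptor ligand and the member with by far the highest CPM, not corrected for length, was repressed 2.95-fold. Vehicle mice had 21151, 27666, 28707, 25510 and 30418 CPM, and mice at 30 μg/kg had 11014, 10129, 7473, 7189 and 9397 CPM. No treated mouse came near the vehicle range. The log2 fold change was -1.56 (SE 0.16, adjusted p = 8.27e-11) at 30 μg/kg, -1.64 without replicate 1 and -0.86 (SE 0.15, adjusted p = 3.08e-05) at 10 μg/kg. After 10 μg/kg the mice had 12348 to 18354 CPM, below all vehicle mice (23% of all genes did not overlap at that dose).

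Apoc1, which lies beside Apoe in the same gene cluster and encodes a small inhibitor of lipoprotein clearance, was repressed 4.69-fold at 30 μg/kg. Vehicle mice had 3100, 3029, 3475, 3054 and 3295 CPM, a coefficient of variation of 5.96%. Mice at 30 μg/kg had 1194, 620, 437, 435 and 713 CPM. The separation was complete, with replicate 1 again the highest of the treated mice. The log2 fold change was -2.23 (SE 0.22, adjusted p = 4.25e-11), and -2.53 without replicate 1. Apoc1 was also called at 10 μg/kg (-1.07, SE 0.21, adjusted p = 0.000127) and at 3 μg/kg (-0.69, SE 0.21, adjusted p = 0.0282), and the call at 3 μg/kg was lost in 5 of the 10 fits without 1 mouse. Already at 0.1 μg/kg its 5 mice, at 1977 to 2887 CPM, lay below all vehicle mice, a separation seen in 1.07% of all genes, but neither that dose nor 0.3 μg/kg passed the test. The log2 ratio of Apoe to Apoc1 rose from 3.06 ± 0.18 (SD, n = 5) to 3.82 ± 0.37 at 30 μg/kg.

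Apoc3, an inhibitor of lipoprotein lipase and of remnant uptake, was repressed 2.27-fold. Vehicle mice had 1682, 1690, 1794, 1742 and 2004 CPM and the 30 μg/kg mice 934, 783, 631, 664 and 914 CPM. The groups were far apart and the treated mice close together. The log2 fold change was -1.18 (SE 0.16, adjusted p = 1.12e-07), -1.25 without replicate 1, and -0.66 (SE 0.16, adjusted p = 0.00165) at 10 μg/kg. Apoc3 was no longer called there when 10 μg/kg replicate 3 was left out (-0.54), with total counts alone as the scaling (-0.47), and in the first (-0.57) and second (-0.77, adjusted p = 0.0726) series of library titles fitted alone. Apoc3 and Apoa1 are neighbours in 1 cluster with Apoa4 and Apoa5, yet Apoc3 fell much less: the log2 ratio of Apoc3 to Apoa1 went from -2.05 ± 0.11 (SD, n = 5) in vehicle to 0.18 ± 0.71 at 30 μg/kg.

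Apoa5, an activator of lipolysis made in the liver, was lower at 10 μg/kg and did not pass the fold threshold at 30 μg/kg. Vehicle mice had 444, 660, 591, 632 and 815 CPM. Mice at 10 μg/kg had 397, 425, 376, 415 and 408 CPM, just under the lowest vehicle mouse. Mice at 30 μg/kg had 309, 570, 553, 377 and 420 CPM and overlapped vehicle. The log2 fold change was -0.64 (SE 0.16, adjusted p = 0.0016) at 10 μg/kg, which was called, and -0.50 (SE 0.16, adjusted p = 0.00695) at 30 μg/kg, a 1.41-fold difference that was not. The difference between these doses was 0.14 (SE 0.16, adjusted p = 0.537). The call at 10 μg/kg was lost without vehicle replicate 5 (-0.53), in the first series of library titles (-0.47, adjusted p = 0.159) and with total counts alone (-0.42). Scaled by total counts only, the value at 30 μg/kg was 0.021, so its direction there also depended on the scaling.

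Apoa4, a lipid-responsive apolipoprotein made mainly by the intestine and to a lesser degree by mouse liver, was the only member induced. Vehicle mice had 4.13, 7.28, 3.75, 3.99 and 5.23 CPM and the 30 μg/kg mice 8.10, 30.6, 14.1, 12.9 and 17.4 CPM. The lowest treated mouse, replicate 1, was only just above the highest vehicle mouse. The induction was 3.41-fold (log2 fold change 1.77, SE 0.32, adjusted p = 1.22e-05), and the log2 fold change was 1.94 without replicate 1. No lower dose was called, and at 10 μg/kg the mean was 5.99 ± 1.58 CPM (log2 fold change 0.29, SE 0.32, adjusted p = 0.527).

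The unstranded level of Apoa4 may be an undercount. The library kit kept no strand, and a read that overlaps genes on both strands is set aside as ambiguous in the unstranded column but is counted in the column of each strand. Summed over all libraries, both strand columns held 22.6 times the unstranded Apoa4 counts and 2.10 times those of Apoa5, against 1.00 for Apoa1, Apoa2, Apob, Apoc1, Apoc3, Apoe and Lcat and 1.10 for Mttp. With the sum of the strand columns, an alternative added after the data were seen, Apoa4 stood at 101 ± 25.6 CPM (SD, n = 5) in vehicle and 347 ± 218 CPM at 30 μg/kg. The log2 difference was 1.79 (SE 0.28, adjusted p = 1.09e-06), close to the 1.77 of the unstranded column. Apoa5 stood at 1185 ± 238 CPM in vehicle, 777 ± 20.3 at 10 μg/kg and 856 ± 234 at 30 μg/kg, with log2 fold changes of -0.61 (adjusted p = 0.00356) and -0.47 (adjusted p = 0.0136). Since strand was not kept, the reads of Apoa4 and Apoa5 cannot be told apart from those of genes on the opposite strand.

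**Figure D3:**
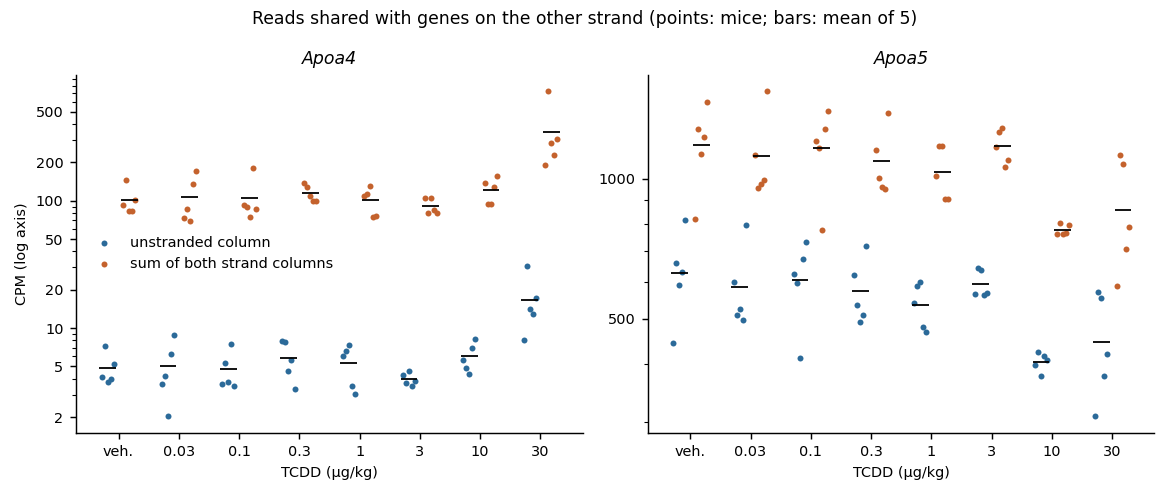
CPM of Apoa4 (left) and Apoa5 (right) on a log axis against TCDD dose from the unstranded column (blue) and from the sum of both strand columns (orange), with 1 point per mouse and a bar at the mean of 5. The Apoa4 series lie far apart and both rise at 30 μg/kg; the Apoa5 series differ less and both dip at 10 μg/kg.

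Between neighbouring doses, the members moved mainly over the last step. Against the next lower dose, edgeR's test called no member at 0.03, 0.1 or 0.3 μg/kg, where 0.0195%, 0.039% and 0.0455% of all genes were called, nor at 1, 3 or 10 μg/kg, where 0.241%, 0.0585% and 6.77% were. Of these steps DESeq2 was run only on 0.03 μg/kg against vehicle, where it called 0 members. In the same order 0, 0, 0, 2, 0 and 3 members had an unadjusted p under 0.05. For Apoa5, Apoe and Mttp the step from 3 to 10 μg/kg had an adjusted p under 0.05 without reaching 1.5-fold. Over that step 9.34% of all genes had an adjusted p under 0.05 at any fold change. From 10 to 30 μg/kg 6 members were called, against 21.1% of all genes: Apoa1, Apoa2, Apob, Apoc1 and Apoe fell by 1.49, 1.84, 0.61, 1.16 and 0.70 on the log2 scale, and Apoa4 rose by 1.47. A straight line over the 7 dose steps had a slope with adjusted p under 0.05 in 9 of the 10 members, 8 of them downward and Apoa4 upward, against 57.7% of all genes (26.1% downward and 31.5% upward). The steepest was Apoa1 at -0.40 per step on the log2 scale (SE 0.04) and the exception was Lcat at 0.023 (SE 0.019, adjusted p = 0.29).

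The members made up 4.77% ± 0.27 (SD, n = 5) of all counts in genes in vehicle mice and 1.95% ± 0.41 at 30 μg/kg. The share was 3.69% ± 0.35 at 3 μg/kg and 2.95% ± 0.27 at 10 μg/kg. The highest mouse at 10 μg/kg, 3.34%, was below the lowest vehicle mouse, 4.35%. Apoe alone accounted for 2.47% of counts in vehicle and 1.17% at 30 μg/kg. The TMM factor, by which libraries were scaled, averaged 0.928 in vehicle and 1.31 at 30 μg/kg, so fold changes from CPM are larger falls than those of the raw shares.

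**Figure D4:**
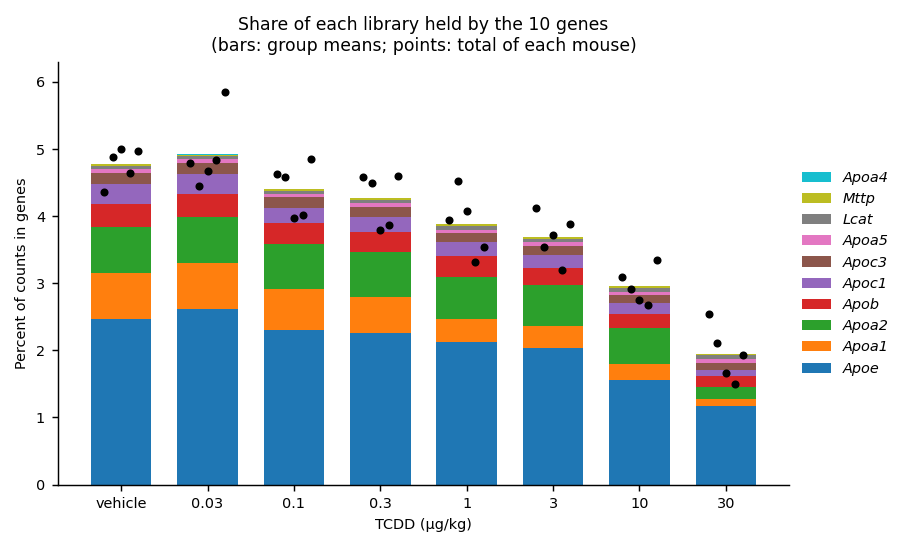
Percent of all counts in genes held by the 10 genes against TCDD dose, as stacked group means with 1 black point for the total of each mouse. The stack falls from 4.77% in vehicle to 1.95% at 30 μg/kg, and Apoe is its largest layer in every group.

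Per kilobase of the longest annotated transcript, vehicle levels differed widely. Apoe stood at 18956 CPM per kb, followed by Apoa2 at 14217, Apoa1 at 7161, Apoc1 at 5997 and Apoc3 at 2514. Lcat at 340 ± 38.6 CPM per kb (SD, n = 5), Apob at 267 ± 40.3 and Apoa5 at 250 ± 53.0 were neighbours whose spreads touched, and with the mean transcript length in its place Apoa5 (551) came before Apob (486) and Lcat (340). Mttp stood at 77.6 and Apoa4 at 2.69. Apoa4 and Apoa5 may both be undercounts here, as the strand columns held 22.6 and 2.10 times their counts, so the place of Apoa5 beside Lcat and Apob is uncertain. At 30 μg/kg Apoe still led at 6421 CPM per kb, Apoa2 had 2681 ± 2432 and Apoc1 1278 ± 585, and Apoa1 at 782 ± 475 had passed below Apoc3 at 1107 ± 196. These are descriptions with no test between genes.

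Among 48 other lipoprotein genes tested, of 49 listed, 31 were called at 30 μg/kg, 26 lower and 5 higher, with a median log2 fold change of -0.69. Of all genes, 42.1% were called at that dose, 18.9% lower and 23.2% higher. At 10 μg/kg 13 were called, 9 lower and 4 higher, where 21.8% of all genes were, and at 3 μg/kg 5 were, against 6.75%. Of the 6 other apolipoproteins tested, 5 were called lower at 30 μg/kg and 0 higher. Apon was repressed 6.67-fold (log2 fold change -2.74, SE 0.30, adjusted p = 7.37e-10), Apoh 4.18-fold (-2.06, SE 0.18) and Apof, a lipid transfer inhibitor, 4.17-fold (-2.06, SE 0.21). The median of the 6 was -1.71.

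Of 12 further genes of VLDL assembly and secretion, 3 were called lower and 0 higher at 30 μg/kg, against 18.9% and 23.2% of all genes, with a median of -0.35. Dgat2, which makes the triglyceride that loads the particle, was repressed 4.02-fold (-2.01, SE 0.19, adjusted p = 1.83e-11), from 518 ± 59.6 CPM (SD, n = 5) to 129 ± 56.8. Tm6sf2, needed for the lipidation of VLDL, was repressed 2.85-fold (-1.51, SE 0.18). Cideb, a lipid droplet protein that aids VLDL lipidation, was repressed 3.50-fold (-1.81, SE 0.23), but its strand columns held 15.3 times its unstranded counts, so its level is uncertain in the way of Apoa4. The other 9, which include the transport factors Sar1b and Surf4 and the chaperone P4hb, were not called.

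The lipases and their regulators split in direction at 30 μg/kg, with 3 of 8 called higher and 4 lower, against 23.2% and 18.9% of all genes. Lpl, lipoprotein lipase, which adult hepatocytes scarcely express, was induced 5.97-fold (2.58, SE 0.26, adjusted p = 6.08e-11), from 34.9 ± 8.54 to 208 ± 75.5 CPM. Lipg, endothelial lipase, was induced 2.10-fold (1.07, SE 0.26) and Gpihbp1, which anchors lipoprotein lipase to capillary endothelium, 1.81-fold (0.86, SE 0.18). Lipc, hepatic lipase, was repressed 3.62-fold (-1.86, SE 0.19), and the lipase inhibitor Angptl8 was lower by 2.93-fold (-1.55, SE 0.60, adjusted p = 0.027). In HDL assembly and exchange 3 of 4 genes were called, against 42.1% of all genes. Abcg1, a cholesterol exporter, was induced 8.24-fold (3.04, SE 0.22). Scarb1, the HDL receptor, was repressed 2.40-fold (-1.26, SE 0.17) and Pltp 1.79-fold (-0.84, SE 0.30, adjusted p = 0.018). The Pltp groups overlapped. The strand columns held 2.04 times the unstranded Pltp counts, and their sum gave a 1.56-fold fall (adjusted p = 0.0391).

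Of 7 receptors and their modulators, 6 were called at 30 μg/kg, 5 lower and 1 higher, where 42.1% of all genes were called, 18.9% lower and 23.2% higher. Vldlr was induced 4.03-fold (2.01, SE 0.28, adjusted p = 1.06e-07), from 6.91 ± 2.19 CPM to 27.9 ± 12.0. Sort1, a sorting receptor that binds apolipoprotein B, was repressed 2.04-fold (-1.03, SE 0.20, adjusted p = 3.05e-05). Of 11 transcription factors, 7 were called lower and 0 higher, against 18.9% and 23.2% of all genes. Srebf1, a driver of lipogenic genes, was repressed 4.13-fold (-2.05, SE 0.28), Ppara, the fatty acid receptor, 3.65-fold (-1.87, SE 0.21) and the clock repressor Nr1d1 3.97-fold (-1.99, SE 0.66, adjusted p = 0.0107). The Nr1d1 groups overlapped. The strand columns held 1.68 times the unstranded Nr1d1 counts, and their sum gave a 2.91-fold fall (adjusted p = 0.0121). Hnf4a, a regulator of many apolipoprotein genes, was at -0.36 (SE 0.12, adjusted p = 0.0121) and was not called.

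**Figure D5:**
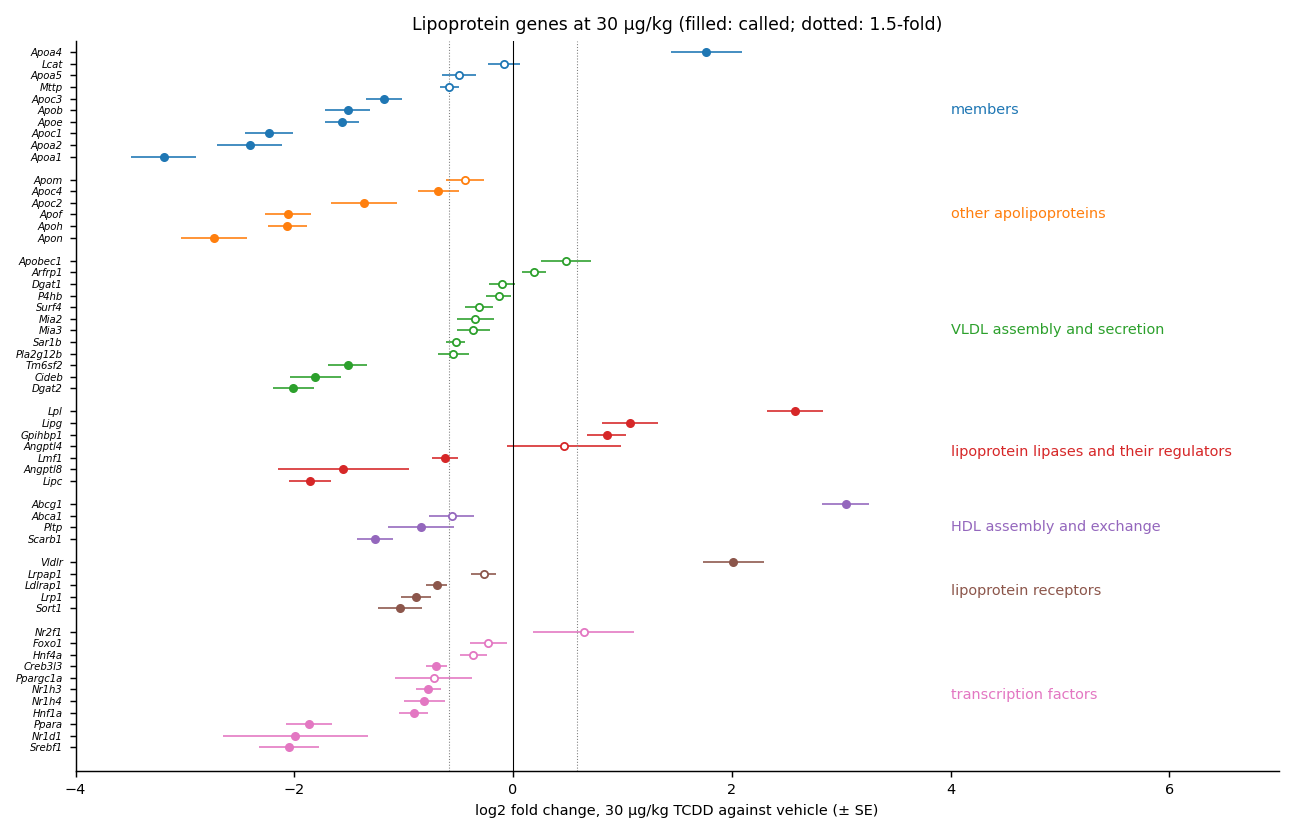
Log2 fold change with its standard error at 30 μg/kg TCDD against vehicle for the 10 genes (top) and 45 of the 48 other lipoprotein genes tested, grouped by role; filled points were called and dotted lines mark 1.5-fold. Most filled points lie to the left of 0, and the 6 filled points to the right are Apoa4, Lpl, Lipg, Gpihbp1, Abcg1 and Vldlr.

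For each member, the pair of genes with the most similar profile was found by Pearson's r of log2 CPM over the 40 libraries, among 10766 genes. Apoa2 was closest to Proc (0.99) and Ebp (0.99), Apoa1 to Pnpla7 (0.98) and Ahsg (0.97), and Apob to Slco1b2 (0.98) and Thrb (0.97). Apoc1 was closest to Tmem256 (0.98) and Dbi (0.97), Apoe to Grhpr (0.97) and C8g (0.97), Apoc3 to Fkbp8 (0.94) and Uqcrq (0.94), and Mttp to Ttc7b (0.92) and Anpep (0.91). Lower values were found for Lcat with Bcas3 (0.87) and Kars (0.87), Apoa4 with Ctsd (0.84) and Arpc5 (0.84), and Apoa5 with Eci2 (0.81) and Gna12 (0.80). Among the members, Apoe correlated with Apoc1 (0.96) and Apoa1 (0.96), while Apob reached no more than 0.72, with Apoc1. The libraries share the dose groups, so that any 2 genes that respond to dose correlate.

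Cell type markers also moved at 30 μg/kg, where 18.9% of all genes were called lower and 23.2% higher. The summed CPM of the 4 hepatocyte markers found was 90534 to 111858 in vehicle and 27427 to 57726 at 30 μg/kg, with all 4 called lower. All 8 macrophage markers were called higher (at most 203 CPM in vehicle, at least 525 at 30 μg/kg), as were all 5 stellate and fibroblast markers (145 to 213 and 490 to 1027). Of the endothelial markers 3 of 5 were called, all higher, of the cholangiocyte markers 3 higher and 1 lower of 4, and of the leukocyte markers all 4 tested were higher. No cholangiocyte marker was called at a lower dose. The mean summed CPM of the hepatocyte markers was 100538 in vehicle, 79044 at 3 μg/kg and 79259 at 10 μg/kg, where 3 of 4 were called lower but the sum overlapped vehicle. That of the members was 51556, 37780 and 27742. In bulk liver, fewer hepatocytes and less RNA of these genes per hepatocyte cannot be told apart. For Apoa4, 2 of the 4 enterocyte markers were at 0 in vehicle, and of the 2 tested Vil1 was called higher, at 0.315 CPM in vehicle and 1.62 at 30 μg/kg. The other marker tested was not called there, and 1 of the 2 was called lower at 10 μg/kg. The summed CPM of the 4 was 40.1 to 55.4 in vehicle, 17.1 to 29.5 at 10 μg/kg and 40.1 to 125 at 30 μg/kg, which overlapped vehicle. The part of these shifts in the members' changes was not tested.

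Library titles fall into a first and a second series of numbers, with 19 and 21 libraries and every dose in both, and each was fitted alone. What the numbering stands for is not stated. At 30 μg/kg 8 members were called in each series, where the fit of all 40 libraries called 42.1% of all genes. Mttp was called only in the first (-0.69, adjusted p = 0.000958) and Apoa5 only in the second (-0.72, adjusted p = 0.0266). The log2 fold changes were -2.82 and -3.59 for Apoa1, -1.72 and -3.20 for Apoa2, -1.83 and -2.61 for Apoc1, -1.30 and -1.83 for Apoe, -1.37 and -1.62 for Apob, -1.02 and -1.37 for Apoc3 and 1.93 and 1.65 for Apoa4. The direction of each of these 7 was the same in both. At 10 μg/kg 4 members were called in each, with Apob only in the first and Apoa5 only in the second. At 1 and 3 μg/kg 1 member, Apoa1, was called in the first series and 0 in the second. The log2 fold change of Apoa1 at 1 μg/kg was -0.88 (SE 0.20) in the first and -1.27 (SE 0.56) in the second. At 3 μg/kg it was -1.17 (SE 0.20) and -1.14 (SE 0.56). The effect was thus not smaller in the second series, but its error was larger. That series held only replicates 4 and 5 of vehicle and of these doses. The fit of all 40 libraries called 21.8% of all genes at 10 μg/kg, 2.78% at 1 μg/kg and 6.75% at 3 μg/kg.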

How the data were processed

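Hepatic RNA of 40 mice was sequenced as 150 bp paired-end reads, and samples were grouped by the dose in the labels. The authors deposited, per library, STAR counts per gene in 3 columns (unstranded and each strand), and a normalized log2 table of the whole series, used only in an alternative. The submitters' processing notes name FastQC 0.11.7, Trimmomatic 0.39, STAR 2.7.3a and the builds GRCm39 and mm10, so the build of the files is unsettled, and the only coordinates given are those of promoters in RefSeq's table. Gene symbols came from GENCODE M21, which named 52083 of 55359 identifiers. Reads that overlap genes on both strands are set aside in the unstranded column. The first strand column held 50.0% to 50.3% of the counts of both strand columns, so strand was not kept. Depth was 15.5 to 21.0 M counts in genes. Rows for unmapped, multiply mapped, featureless and ambiguous reads were left out (19.2% to 28.7% of counts).

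The members and all gene lists were chosen with earlier results of these data known. Unstranded counts were filtered with filterByExpr (minimum count 10), scaled by TMM and fitted with edgeR 4.0.16 (R 4.3.3) as 1 mean per dose over all 40 libraries. The quasi-likelihood test was adjusted by Benjamini-Hochberg over 15373 genes within each dose. Adjusted p under 0.05 and a fold change of at least 1.5 made a call. The study used a posterior probability in place of the adjusted p. SE is the log2 fold change over the root of F. Named genes outside the 10 were, per list, up to 3 with the largest rise and up to 3 with the largest fall at 30 μg/kg among those called, and 3 genes of the lists are not reported here. Hnf4a, Sar1b, Surf4 and P4hb were named after their values were seen. Other motifs, among them an HNF4A element in several spellings, were also searched and are not reported. No 2 libraries agreed within sampling noise over 80 pairs within groups (lowest chi-square per degree of freedom 10.2). The code was tested on simulated data. Alternatives used DESeq2 1.42.0, limma 3.58.1, other scalings and filters, the title series, and fits without 1 mouse. Each p-value measures the spread between single mice.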

Additional observations from a re-analysis of the deposited data

Results flagged for a closer look

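In 88 groups of 5 mice checked (each member and the members' share of counts in each dose group), 8 held a mouse far from the other 4, with a gap to the nearest over the group's range above 0.71, where chance gives about 5%. Replicate 5 at 0.03 μg/kg accounted for 5 of the 8. It had 10128 CPM of Apoa2 (the other 4 mice 6331 to 6965), 4572 of Apoc1 (2734 to 2987), 2701 of Apoc3 (1514 to 1580) and 603 of Lcat (390 to 448), and its members took 5.85% of counts (4.45% to 4.84%). No member was called at that dose with or without it. Apoa1 in replicate 5 at 10 μg/kg stood at 3871 CPM (1549 to 2088 in the other 4), and Apoa2 in replicate 1 at 30 μg/kg at 3572 CPM (562 to 1355). Lcat in replicate 4 at 1 μg/kg was low, at 484 CPM (550 to 571).

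The strand columns, which are outside the main measurement, held a rise of Apoa4 at 30 μg/kg with a log2 fold change of 1.79 against vehicle.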

How the results depend on the processing

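No paired analysis was possible because the replicate numbers follow accession order and pair no mice. The number of members called at 30 μg/kg ranged from 7 to 9 over all alternatives, each with 1 higher. At 10 μg/kg it was 4 with libraries scaled to total counts alone and in each title series, and 7 with no fold threshold or with series and order as a covariate. At 3 μg/kg it was 3 with, among others, DESeq2 and TMM factors made without the members and hepatocyte markers, 1 in the first title series and 0 in the second, and at 1 μg/kg 0 in the second series and 2 with series and order as a covariate. From 10 to 30 μg/kg it was 2 in the first series. Without 1 mouse it ranged from 0 to 1 at 1 μg/kg, from 1 to 3 at 3 μg/kg, from 5 to 6 at 10 μg/kg and from 7 to 9 at 30 μg/kg. The call at 1 μg/kg was lost without vehicle replicate 3, 4 or 5 or 1 μg/kg replicate 1, 3 or 4, and 1 member was called at 3 μg/kg without vehicle replicate 3 or 5 or 3 μg/kg replicate 4 or 5.

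Total counts alone raised the median of all genes at 30 μg/kg from 0.029 to 0.52 (6402 genes called higher and 1559 lower, against 3567 and 2909), and 21 pathway genes were called in place of 31. The median of the members became -0.87, and their log2 fold changes turned for Apoa5 at 3 μg/kg (0.011) and 30 μg/kg (0.021) and for Lcat at 30 μg/kg (0.40). TMM factors made without the members and hepatocyte markers called 9 members. Other changes of sign were within the error: Apoa5 in the first series at 1 μg/kg (0.023) and 3 μg/kg (0.11), Apoa5 at 3 μg/kg without 1 mouse (-0.18 to 0.033, positive without vehicle replicate 5), Apoa4 at 1 μg/kg in the second series (-0.49), without 1 mouse (-0.030 to 0.31, negative without 1 μg/kg replicate 3) and from the strand columns (-0.00062), and Apob at 1 μg/kg in the second series (0.060). The cause of these changes was not tested. Apoa4, at a mean of 77.6 unstranded counts in vehicle, is the member whose depth limits it.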
